A study of Mus musculus with 16 samples.

Results

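Parental RAW264.7 cells were profiled here as a baseline: which genes the line used, at what level, which relatives of those genes it left silent, and how far its libraries differed among themselves. RAW264.7 cells grow as adherent macrophage-like cells and descend from a tumour that Abelson murine leukaemia virus raised in a male BALB/c mouse. The 4 libraries that the labels call Parental were taken out of a series of 16, by the names Ctrl_1 to Ctrl_4 in the count table. The other libraries are labelled as knockdowns and were not used. The genotype given for the 4 libraries is Parental, the line is labelled RAW264.7(TIB-71), and no treatment or construct is named. Cells were collected on the day after plating in complete medium, and polyadenylated RNA was read from 500 ng of total RNA as strand-specific paired reads of 100 bases. The labels do not say whether the 4 libraries came from separate cultures, so the spread given here is that between these libraries and may be technical.

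Macrophages take up particles and dying cells, break them down in lysosomes, produce reactive oxygen, and sense microbial products through Toll-like and cytosolic receptors. The transcription factor Spi1 (PU.1) and the growth factor receptor Csf1r define the lineage. Many of the proteins involved belong to families of duplicated genes, of which a cell usually reads only some.

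The 4 libraries held 32779753, 37353063, 27885958 and 33225372 counts, and between 15957 and 16297 gene records had at least 1 count in a library. Counts scaled to a library total of 1000000 (CPM) are used to set libraries side by side. TPM values, in which each count is divided by the length of the gene's exons before the same scaling, are used to set genes side by side. Means are over the 4 libraries and ± is the SD (n = 4). A gene was called used at 1 CPM or more in each of the 4 libraries, silent at under 0.1 CPM in each, and low otherwise. With 131244146 counts in all 4 libraries together, a gene without a count could have been present at up to 0.0229 CPM, the limit that 3 counts set, which covers counting error only. Protein-coding genes took 95.2% ± 0.0334 of the counts, ribosomal protein genes 4.28% ± 0.201 and mitochondrial genes 1.19% ± 0.0744.

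The 4 defining macrophage genes were all read at high level. Lyz2, which encodes the lysozyme of phagocytes, stood at 6769, 7287, 7407 and 7097 CPM in Parental 1 to 4. Cd68, a glycoprotein of the lysosome membrane, stood at 972, 951, 858 and 937 CPM. Csf1r, the receptor for macrophage colony-stimulating factor, stood at 1859, 1874, 1839 and 1846 CPM, and Spi1 at 260.2, 264, 237 and 229.9 CPM. The libraries lay close together for each of these genes, with an SD of at most 6.89% of the mean, that of Spi1. Per length of joined exons, Lyz2 was first among all protein-coding records with 16789.6 ± 573 TPM, Cd68 was at rank 34 with 2289 ± 125 TPM, Csf1r at rank 113 with 994 ± 8.57 TPM and Spi1 at rank 460 with 284 ± 17.8 TPM. On GRCm38 (mm10), Lyz2 lies at chr10:117277331-117282321, Cd68 at chr11:69664213-69666153 and Spi1 at chr2:91082390-91115756.

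Of 20 listed macrophage markers, 19 were used, against 46.6% of all 21900 protein-coding records, and the median of the list was 264 CPM, beside 40.4 CPM for used protein-coding records. Laptm5, a lysosomal membrane protein of blood cells, reached 1148 ± 41.6 TPM, Mpeg1, which encodes the pore-forming perforin-2, 1004 ± 38.8 TPM and Cd14, the coreceptor for lipopolysaccharide, 1855 ± 55.3 TPM. Lower members were Adgre1, the F4/80 antigen, with 63.8 ± 2.40 TPM, Aif1 (IBA1) with 5.44 ± 0.597 TPM, and Mrc1, the mannose receptor, with 0.799 ± 0.178 TPM. The level of Mrc1 was 1.65, 1.69, 2.08 and 1.17 CPM, just above the limit for a used gene. Cd163, the haemoglobin scavenger receptor of many tissue macrophages, had no count in any library. The label of a macrophage-like line thus fitted most of these 20 markers, with Cd163 not detected and Mrc1 and Aif1 close to the bottom of the used range. The count of used markers depends on which genes were listed. Some macrophage genes held in other lists, Mertk, Timd4, the C1q chains and Apoe, stood near or under the limit for a used gene and are described below.

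Most markers of other cell types were not used, with at most 33.3% of a list used. Silent were 7 of 10 T lymphocyte, 8 of 10 B lymphocyte, 9 of 11 neutrophil and 7 of 8 mast cell markers. All 7 epithelial, all 8 natural killer and 8 of 10 fibroblast markers were silent too. Fewer were silent among erythroid or megakaryocyte (4 of 8), dendritic cell (3 of 9) and endothelial markers (1 of 6). Of all protein-coding records 46.6% were used and 45.1% were silent. None of 7 epithelial, 8 natural killer, 10 fibroblast and 8 erythroid or megakaryocyte markers was used, and Epcam, Cdh1, Col1a1 and Col1a2 had no count. Their summed level was 0 CPM in every library for the epithelial list, 0 to 0.0717 CPM for the natural killer list, 0.466 to 0.776 CPM for the fibroblast list and 0.458 to 1.00 CPM for the erythroid list. Among 10 T lymphocyte markers, Cd28 (14.1 ± 0.536 CPM) and the kinase gene Lck (4.44 ± 0.307 CPM) were used while Cd3d, Cd3e, Cd3g and Trac had no count, and the list summed to 18.4 to 19.4 CPM. Among 10 B lymphocyte markers, Ighm, the immunoglobulin mu heavy chain, stood at 96.9, 98.8, 96.3 and 104 CPM and the adaptor Blnk at 39.0 ± 2.65 CPM, while Cd79b, Ms4a1 and Ebf1 had no count. The B lymphocyte list summed to 135 to 141 CPM. Ighm was thus read evenly in all 4 libraries while 8 of the 10 B lymphocyte markers were silent. Of 11 neutrophil markers only Csf3r, the receptor for granulocyte colony-stimulating factor, was used (6.74 ± 0.288 CPM), and of 8 mast cell markers only Hdc, histidine decarboxylase (3.20 ± 0.525 CPM). Of 6 endothelial markers Eng (4.41 ± 0.549 CPM) and Vwf (3.04 ± 0.840 CPM) were used. Of 9 dendritic cell markers 3 were used, with Bst2 (tetherin) at 345 ± 21.9 CPM making up most of the sum, Itgax at 3.28 ± 0.0644 CPM and Zbtb46 at 1.82 ± 0.318 CPM, while Flt3 and Ccr7 had no count.

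The Y-linked genes Ddx3y (53.8 ± 3.75 CPM), Eif2s3y (40.5 ± 2.56 CPM), Kdm5d (22.5 ± 1.81 CPM) and Uty (14.9 ± 1.42 CPM) were all used, and Xist, the RNA that coats the inactive X chromosome, had 1 count in the 4 libraries together. These are the levels of a line that holds a Y chromosome.

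The 2 mouse lysozyme genes show how unevenly neighbouring copies were read. Lyz1, which lies beside Lyz2 on chromosome 10, stood at 156, 175, 178 and 173 CPM, and per length Lyz2 was 40.2 ± 0.900 times as high as Lyz1. Only 1.97% of the 100-base windows in Lyz2 transcripts occur in another gene, so most reads of either gene could be told apart. The promoters of both are printed because the genes are close copies that differ in level, followed by 2 genes with promoters rich in CG pairs that were used and 2 genes without a count. Each is the 150 bases before the RefSeq start of the gene on GRCm38.p6, 5′ to 3′ on the gene's strand, with CG pairs in capitals.
Lyz2: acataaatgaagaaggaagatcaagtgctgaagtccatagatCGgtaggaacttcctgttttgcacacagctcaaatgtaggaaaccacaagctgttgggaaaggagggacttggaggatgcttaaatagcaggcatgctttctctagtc
Lyz1: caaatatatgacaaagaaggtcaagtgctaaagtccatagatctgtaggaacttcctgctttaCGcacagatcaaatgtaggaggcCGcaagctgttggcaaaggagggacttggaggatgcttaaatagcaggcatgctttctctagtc
Ctsd: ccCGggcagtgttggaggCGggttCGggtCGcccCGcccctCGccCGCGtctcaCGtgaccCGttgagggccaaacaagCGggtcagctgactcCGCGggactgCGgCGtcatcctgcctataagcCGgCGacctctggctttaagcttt
Tmem30a: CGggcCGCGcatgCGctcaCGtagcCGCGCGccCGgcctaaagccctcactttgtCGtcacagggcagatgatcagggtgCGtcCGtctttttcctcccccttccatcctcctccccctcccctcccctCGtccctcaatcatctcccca
Ldhb: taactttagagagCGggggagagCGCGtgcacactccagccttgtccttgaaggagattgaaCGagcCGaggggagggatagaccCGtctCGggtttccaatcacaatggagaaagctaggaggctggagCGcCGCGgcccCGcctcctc
Pycard: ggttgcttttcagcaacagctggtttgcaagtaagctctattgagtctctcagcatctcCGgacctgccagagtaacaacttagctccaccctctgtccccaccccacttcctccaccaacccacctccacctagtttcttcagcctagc
The windows are chr10:117282273-117282422 and chr10:117292869-117293018 for the lysozymes, chr7:142387828-142387977 for Ctsd, which encodes the aspartic protease cathepsin D, and chr9:79793431-79793580 for Tmem30a. They are chr6:142507958-142508107 for Ldhb, the B subunit of lactate dehydrogenase, and chr7:127993868-127994017 for Pycard, the inflammasome adaptor ASC. All 6 are on the minus strand. The RefSeq starts of Lyz2 and Tmem30a lie inside the longer GENCODE models of these genes, so part of each of these windows overlaps its gene. The Lyz2 and Lyz1 windows share 129 of 150 bases at the same place. The printed stretch held 1 CG in Lyz2, 2 in Lyz1, 17 in Ctsd, 13 in Tmem30a, 11 in Ldhb and 1 in Pycard. Lyz2, read at high level, and Pycard, with no count, both had few CG pairs, and Ldhb had many and no count.

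CG pairs were counted over 250 bases before each of 20202 RefSeq starts, which belong to 16568 genes of the table and include 521 of the 678 listed genes. A window was called CG-rich at an observed to expected ratio of 0.6 or more. CG-rich windows made up 68.8% of those of used genes, 36.1% of those of low genes and 18.9% of those of silent genes, against 46.1% of all. Of windows of used macrophage markers 2 of 13 were CG-rich (15.4%), near the 7 of 54 (13.0%) of silent markers of other cell types. The share was 43.7% for used and 14.8% for silent listed genes. Of windows of used cyclins and cell cycle genes 14 of 19 were CG-rich (73.7%). The letters GAGGAAG, on either strand, which hold the core that PU.1 recognises, were in 5 of 13 windows of used macrophage markers (38.5%, windows of 12 genes) and in 10.47% of all windows. They were also in 18.3% of windows of used listed genes, 17.9% of those of silent listed genes and 20.4% of those of silent markers of other cell types. The letters TATAAA, on either strand, were in 6.05% of windows of used genes and 18.2% of those of silent genes, against 11.2% of all. These are matches of letters in a fixed window and describe sequence only.

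Nearly as many protein-coding records were silent as were used. Used were 10207 of 21900 (46.6%), low were 1810 (8.26%) and silent were 9883 (45.1%), among which 8472 had no count in any library. A mean of at least 10 CPM was reached by 8520, of at least 100 CPM by 2271 and of at least 1000 CPM by 85. The median used protein-coding record stood at 40.4 CPM and at 26.1 TPM. Counts were spread over many genes: the 10 highest records of any kind took 5.90% ± 0.110 of each library, the 100 highest 20.4% ± 0.248 and the 1000 highest 52.9% ± 0.370. The highest 862 records held 50% of all counts and the highest 5200 held 90%. Besides protein-coding records, 261 long non-coding and 644 pseudogene records were used.

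**Figure D1:**
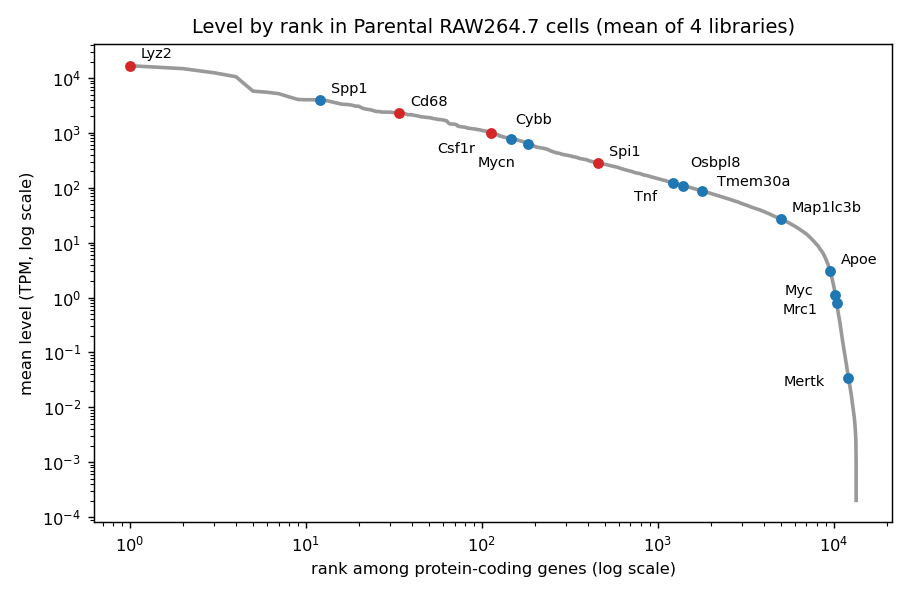
Mean level of each protein-coding record in TPM (log scale) against its rank (log scale), with 4 defining macrophage genes in red and other genes named in the text in blue. On this scale, over joined exons, Lyz2 is first, Spi1 is at rank 460, and the curve falls steeply beyond about the rank of Apoe, which is 9549.

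The 20 named protein-coding genes with the highest level per length were those of protein synthesis, the cytoskeleton, iron storage and mitochondrial respiration, together with several genes of phagocytes. After Lyz2 came Eef1a1, the elongation factor that brings transfer RNA to the ribosome, with 14840.2 ± 270 TPM, mt-Co1, a subunit of cytochrome oxidase, with 12490.1 ± 819 TPM, and Ftl1, the ferritin light chain, with 10590.4 ± 607 TPM. Actb reached 5772 ± 170.5 TPM, the calcium-binding S100a4 5525 ± 270.2 TPM, the nuclear acidic protein Ptma 5196 ± 240.0 TPM and Tuba1b 4550.3 ± 148 TPM. Ifitm3, an interferon-induced membrane protein that restricts viral entry, followed with 4079.8 ± 167 TPM, then mt-Nd1, Rps3a1 and Spp1. Spp1 encodes osteopontin, a secreted phosphoprotein, and stood at 2083, 2068, 2063 and 2249.6 CPM, with Parental 4 above the other 3. Pkm, Rplp1, Hsp90ab1, Eef2, mt-Cytb, Fth1, B2m and Gapdh completed the 20 with levels between 2813 and 3897 TPM. Pkm, the muscle-type pyruvate kinase gene, had 3897 TPM over its joined exons and 6239 TPM over its longest transcript, and Lyz2 had 13072 TPM on that second scale, below Eef1a1 with 16056 TPM. Shared sequence also limits this order. In another gene occur 62.1% of the windows of Tuba1b, 45.3% of Rps3a1, 41.9% of S100a4, 34.4% of Ftl1 and 30.8% of mt-Co1, against 1.97% of Lyz2 and 0.644% of Actb. The nuclear copies of mt-Co3 (Gm28437), mt-Co2 (Gm28661) and mt-Atp6 (Gm10925) were not ranked here. They stood at 10558, 7947 and 6077 TPM.

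Of 18 genes of cathepsins, lysozymes and lysosome membrane proteins, 15 were used (83.3%, beside 46.6% of all protein-coding records). Over joined exons the levels were those of Ctsd with 2402 ± 73.4 TPM, the cysteine proteases Ctsz with 1957 ± 48.8 TPM, Ctss with 1931 ± 32.9 TPM and Ctsb with 1753 ± 30.01 TPM, and the serine carboxypeptidase Ctsa with 539.5 ± 17.8 TPM. Ctsz and Ctss differed by less than their SD, and over the longest transcripts Ctsb, with 1741 TPM, was above both, with 1524 and 1507 TPM, so no order is given to these 3. In CPM, Ctsb was 3351, 3512, 3385 and 3463 CPM, the largest count of a cathepsin. Ctsk, the collagen-degrading cathepsin of osteoclasts, stood at 5.64 ± 0.599 TPM. Ctsb was 313 ± 31.2 times as high as Ctsk over joined exons and 396 times over the longest transcripts. Ctsh was low and Ctsg and Ctsw, proteases of granulocytes and killer cells, had no count.

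Of 16 genes of colony-stimulating factors and related ligands and receptors, 9 were used (56.3%, beside 46.6% of all protein-coding records). Csf1r was 172 ± 7.91 times as high as Csf3r over joined exons and 204 times over the longest transcripts. Csf2ra and Csf2rb, the chains of the receptor for granulocyte-macrophage colony-stimulating factor, stood at 51.4 ± 7.02 and 20.6 ± 1.503 TPM. Tnfrsf11a, which encodes RANK, the receptor through which macrophages become osteoclasts, stood at 109, 100.2, 106 and 101 CPM, while its ligand Tnfsf11 had no count. Kit, Flt3 and Il3ra, receptors of earlier blood cells, had no count. Of the ligands of Csf1r, Csf1 was used at 3.13 ± 0.427 CPM and Il34 was low with 5 counts in all.

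Of 35 transcription factors of the myeloid lineage, 27 were used (77.1%, beside 46.6% of all protein-coding records). The interferon regulatory factors Irf7 and Irf5 stood at 513 ± 15.3 and 197 ± 2.98 TPM, above and below Spi1. Irf8, a factor of monocyte development, stood at 32.8 ± 1.29 TPM and Irf3 at 35.7 ± 0.679 TPM. Over the longest transcripts Irf8 had 51.9 and Irf3 47.1 TPM, so no order is given. Irf4 was used at 3.47 ± 0.419 CPM. Of the C/EBP factors, Cebpb stood at 25.9 ± 5.47 TPM and Cebpa at 18.5 ± 1.33 TPM. Cebpb varied between libraries, with 13.5, 15.7, 12.01 and 9.09 CPM, highest in Parental 2 and lowest in Parental 4. Runx1 at 16.5 ± 0.585 TPM (26.4 TPM over the longest transcript) was above Runx3 and Runx2 on both scales. The lineage factors Gata1 and Gata2, and the relatives of Spi1 named Spib and Spic, had 8 counts or fewer each.

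Among Toll-like receptors and their partners, 18 of 21 genes were used (85.7%, beside 46.6% of all protein-coding records). The receptor for bacterial lipoproteins, Tlr2, stood at 308, 299, 317 and 308 CPM, and Tlr7, which senses single-stranded RNA, at 243, 231, 244 and 249 CPM. Tlr4, the receptor for lipopolysaccharide, stood at 94.4, 95.7, 102 and 106 CPM. Tlr2 was 5.72 ± 0.276 times as high as Tlr4 over joined exons and 4.19 times over the longest transcripts. Ly96, which encodes MD-2, the protein that binds lipopolysaccharide together with Tlr4, stood at 18.8 ± 1.35 TPM, below Tlr4 at 55.4 ± 3.46 TPM and far below Cd14. Unc93b1, which carries the nucleic acid sensing receptors to endosomes, reached 310.4 ± 8.33 TPM. Tlr13, a sensor of bacterial ribosomal RNA, was at 74.6 ± 2.39 TPM, and Tlr1, Tlr3, Tlr6 and Tlr9 lay between 15.5 and 20.8 TPM. Tlr5, the flagellin receptor, had 2 counts, both in Parental 1, and Tlr11 and Tlr12 had none.

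Cytosolic sensors were read broadly, with 21 of 26 used (80.8%, beside 46.6% of all protein-coding records). The adaptor of the inflammasome was not read. Nlrp3 stood at 78.0, 73.4, 80.4 and 81.1 CPM, Casp1, the caspase it activates, at 46.03, 51.7, 54.8 and 49.99 CPM, and Gsdmd, whose cleaved form makes pores, at 82.3, 76.7, 85.7 and 90.6 CPM. Pycard, the adaptor ASC that joins Nlrp3 to Casp1, had no count in any library, and its promoter is printed above. Pycard lies at chr7:127989708-127993867 on the minus strand. Il1b had 9 counts in the 4 libraries together, while Il18 stood at 10.6 ± 0.174 CPM. The RNA sensors Ddx58 (RIG-I) and Ifih1 (MDA5) stood at 127 ± 3.52 and 44.7 ± 0.710 TPM, the DNA sensors Cgas and Aim2 at 62.1 ± 2.71 and 42.03 ± 1.87 TPM and the adaptor Tmem173 (STING) at 45.0 ± 2.82 TPM.

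No listed interferon was used, while receptors and signalling proteins for interferons were. Ifna1, Ifna2, Ifna4 and Ifng had no count and Ifnb1 had 23 counts in all, or 0.180 ± 0.109 CPM. Ifnar1 and Ifnar2 stood at 78.1 ± 3.03 and 69.8 ± 3.83 CPM and Ifngr1 at 43.4 ± 1.33 CPM. Among the signalling factors, Stat2 stood at 121 ± 4.47 CPM and Stat4 had about 1 count. Promoters of 3 further genes are shown because they hold the letters GAAANNGAAA or their reverse complement, in capitals, which form the core of the interferon-stimulated response element.
Ctss: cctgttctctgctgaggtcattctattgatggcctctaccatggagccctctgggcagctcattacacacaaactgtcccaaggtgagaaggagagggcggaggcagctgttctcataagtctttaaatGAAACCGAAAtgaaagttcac
Cybb: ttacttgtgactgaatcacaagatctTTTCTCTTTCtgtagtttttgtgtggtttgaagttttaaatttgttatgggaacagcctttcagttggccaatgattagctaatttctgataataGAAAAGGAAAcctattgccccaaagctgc
Bst2: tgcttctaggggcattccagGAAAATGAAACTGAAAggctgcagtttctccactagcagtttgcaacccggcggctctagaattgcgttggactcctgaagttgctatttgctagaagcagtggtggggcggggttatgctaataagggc
The windows are chr3:95526636-95526785 on the plus strand, chrX:9469325-9469474 on the minus strand and chr8:71537473-71537622 on the minus strand. Bst2 holds the letters in 2 overlapping copies and Cybb in both orientations. The letters were in 3.0% of all 250-base windows, in 2.78% of those of used and 3.18% of those of silent genes, and in 5.03% of those of used and 5.61% of those of silent listed genes.

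Class I presentation was used and class II was not. B2m, the invariant chain shared by class I proteins, stood at 3061 ± 71.1 TPM, H2-D1 at 719 ± 30.4 TPM and H2-K1 at 199 ± 7.66 TPM. These genes have close relatives, and 3.59% of the windows of H2-D1 and 0.957% of those of H2-K1 occur in another gene. The windows compare reference transcripts with each other. They do not cover differences between the genes of this line and the reference, which were not tested. H2-Aa, H2-Ab1 and H2-Eb1, the chains of class II molecules, had between 7 and 9 counts each. Ciita, the activator of class II genes, had 11 counts, or 0.0808 ± 0.0560 CPM. Cd74, the invariant chain that escorts class II molecules, stood at 209, 219, 205 and 241 CPM, so it was read without its partners.

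Receptors for antibodies and for particles were used unequally. All 6 listed Fc receptor genes were used, with the signalling chain Fcer1g at 469 ± 14.1 TPM and the high-affinity receptor Fcgr1 at 189.8 ± 6.74 TPM above Fcgr3 at 33.7 ± 2.71, Fcgr2b at 16.2 ± 0.956 and Fcgr4 at 14.8 ± 1.45 TPM. Of 14 scavenger receptors 8 were used (57.1%, beside 46.6% of all protein-coding records), and besides Cd68 these included Lrp1 at 175 ± 5.97 TPM, Colec12 at 165 ± 6.64 TPM and Msr1 at 156 ± 5.57 TPM. Cd36, the receptor for oxidised lipoprotein, stood at 72.6 ± 2.17 TPM, and Marco and Scara5 had no count. Of 20 C-type lectins and Siglecs 11 were used (55%), led per length by Clec4d at 186 ± 7.23 TPM and Clec5a at 181 ± 5.93 TPM, which differed by less than their SD, while Clec4n, the gene for dectin-2, was low at 0.410 ± 0.0693 CPM.

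Receptors for phosphatidylserine, the lipid that dying cells expose, were used in 14 of 21 cases, bridging proteins included. That is 66.7%, beside 46.6% of all protein-coding records. Cd300lb stood at 257, 253, 261 and 259 CPM and Trem2, a lipid-binding receptor, at 295, 289.6, 289 and 295 CPM, both nearly even across the libraries. The TAM receptor kinases, which bind the lipid through Gas6 and Pros1, were at low levels. Mertk had 6 counts in all, with 0.0915, 0, 0.0359 and 0.0602 CPM, Tyro3 had 15 counts, and Axl, the used member, stood at 3.72, 2.92, 3.23 and 3.22 CPM. Their bridging ligands Gas6 and Pros1 stood at 41.0 ± 2.72 and 28.7 ± 0.467 CPM, and Mfge8, which bridges to integrins, at 57.0 ± 3.40 CPM. Of the integrin chains that bind Mfge8, Itgav and Itgb5 were used at 77.9 ± 2.77 and 38.6 ± 1.93 CPM and Itgb3 was low at 0.221 ± 0.0155 CPM. Timd4, Havcr1 and Stab2 had no count.

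Several lipid transport genes that the series' knockdowns are named for were read as follows in the unmodified line. Tmem30a, which encodes CDC50A, the subunit most P4-ATPase flippases need to leave the endoplasmic reticulum, stood at 164, 157, 164 and 155 CPM (chr9:79768943-79793507, minus strand), and its relatives Tmem30b and Tmem30c had no count. Of 18 flippases and CDC50 subunits listed, 9 were used (50%, beside 46.6% of all protein-coding records). Flippases move phosphatidylserine and other lipids to the inner leaflet of a membrane. Among the flippases alone, Atp8b4 was first per length with 74.0 ± 1.65 TPM, followed by Atp8b2 with 45.0 ± 1.84 and Atp11b with 27.98 ± 0.819 TPM. Atp11a, a flippase of the plasma membrane, stood at 58.2, 61.0, 61.2 and 62.96 CPM. Osbpl8, which encodes ORP8, a protein that exchanges phosphatidylserine between endoplasmic reticulum and plasma membrane, stood at 330.5, 328, 344 and 334 CPM. Osbpl5, which encodes its partner ORP5, was low, at 0.214, 0.0535, 0.108 and 0.181 CPM, or 18 counts in the 4 libraries together. Osbpl8 was thus read at a level that Osbpl5 did not approach. Osbpl8 was 1.69 ± 0.0430 times as high as Osbp over joined exons and 2.20 times over the longest transcripts.

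Of the 12 oxysterol-binding proteins 9 were used (75%, beside 46.6% of all protein-coding records). Besides Osbpl8 these lay between 3.03 CPM for Osbpl10 and 94.5 CPM for Osbp. Among 25 scramblases, which let lipids cross a membrane in both directions, 11 were used (44%, beside 46.6% of all protein-coding records). Ano6, the calcium-activated scramblase of the plasma membrane, stood at 162, 158, 154 and 156 CPM and Xkr8, the scramblase that caspases activate, at 5.93 ± 0.311 CPM. The scramblases of the endoplasmic reticulum, Tmem41b and Vmp1, stood at 82.3 ± 1.52 and 79.5 ± 3.84 CPM. Xkr4, Ano1 and Plscr2 were among 11 members with no count.

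Of 18 genes for LC3 and GABARAP proteins and the enzymes that join them to lipid, 17 were used (94.4%). The share over all protein-coding records was 46.6%. Gabarap stood at 199.7, 208, 203 and 195 CPM, and Map1lc3b, the most used marker gene of autophagosomes, at 64.7, 65.2, 65.7 and 63.4 CPM. Gabarap was 12.7 ± 0.221 times as high as Map1lc3b over joined exons and 9.53 times over the longest transcripts. Over joined exons Map1lc3b, with 26.7 ± 0.340 TPM, was below Gabarapl1 at 70.6 ± 3.30 TPM and Gabarapl2 at 66.9 ± 3.88 TPM. The order of the last 2 turns over the longest transcripts, with 60.8 and 72.2 TPM, so none is given. Map1lc3a was the only low member, with 1.16, 2.14, 0.825 and 1.47 CPM, a spread beyond counting error. The conjugation enzymes Atg5, Atg7 and Atg16l1 stood at 37.4 ± 3.05, 56.1 ± 0.960 and 35.2 ± 3.68 CPM and Rubcn, a protein of LC3-associated phagocytosis, at 38.8 ± 1.16 CPM.

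Of 15 genes of NADPH oxidases and Rac GTPases, 7 were used (46.7%, beside 46.6% of all protein-coding records). Cybb, its catalytic subunit, stood at 1449.9, 1465, 1484 and 1485 CPM, and its membrane partner Cyba reached 757 ± 40.7 TPM against 784 ± 13.98 TPM for Cybb, a difference smaller than the SD of Cyba. The cytosolic subunits Ncf1 and Ncf4 stood at 438 ± 8.92 and 191 ± 3.56 TPM. The other catalytic genes were low or silent, with 15 counts for Nox1, 1 for Nox3 and none for Nox4 and Duox1. Of the Rac GTPases that switch the enzyme on, Rac2, the form of blood cells, was 2.09 ± 0.0567 times as high as Rac1 over joined exons. Over the longest transcripts the ratio was 1.97, and Rac3 was low at 0.314 ± 0.0725 CPM.

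**Figure D2:**
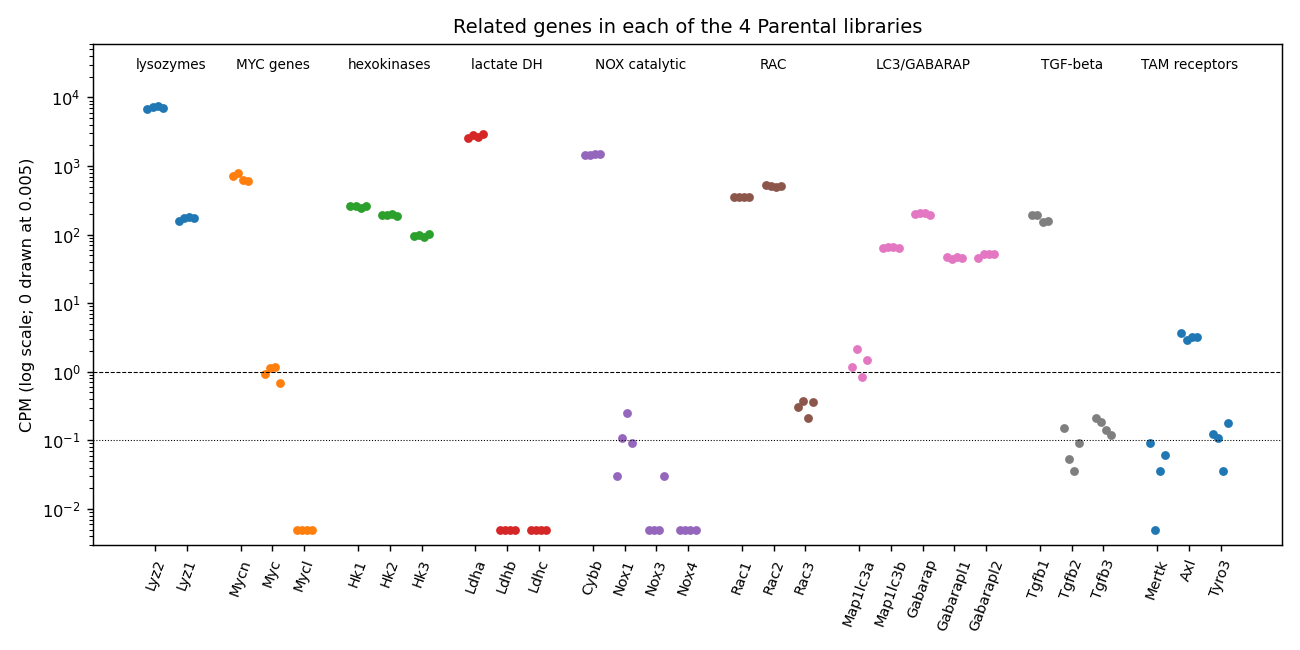
CPM (log scale, with 0 drawn at 0.005) of related genes in Parental 1 to 4, 1 point a library, with dashed and dotted lines at 1 and 0.1 CPM. The 4 points of a used gene lie close together, and within a family levels differ by far more than that, as for Mycn against Myc or Ldha against Ldhb.

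At several steps of glycolysis a single gene took nearly all counts. Of 31 isoenzyme and glucose transporter genes 21 were used (67.7%, beside 46.6% of all protein-coding records). Ldha, the A subunit of lactate dehydrogenase, stood at 2544, 2835, 2685 and 2946 CPM, and Ldhb and Ldhc had no count. Pkm stood at 6255, 6393, 6059.9 and 6480.1 CPM, and Pklr, the liver and red cell form, had no count. Over joined exons Aldoa was 24.8 ± 0.159 times as high as Aldoc and Eno1 59.9 ± 3.63 times as high as Eno3, and over the longest transcripts the ratios were 39.8 and 142. At another step 3 hexokinases were used together, with Hk1 at 92.8 ± 3.54, Hk2 at 99.2 ± 2.21 and Hk3 at 81.3 ± 3.73 TPM. Hk1 was 0.936 ± 0.0530 times Hk2 over joined exons and 1.72 times over the longest transcripts, so no order is given. The glucose transporters Slc2a1 and Slc2a6 stood at 187 ± 7.43 and 184 ± 8.26 TPM, a difference within their SD, and Slc2a4, the insulin-responsive transporter, was low.

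Proliferation genes were read at high level, and so was 1 of the 3 MYC genes. Mycn stood at 719.7, 779.6, 614 and 594 CPM (chr12:12936093-12941914, minus strand) and Myc at 0.915, 1.15, 1.18 and 0.692 CPM, while Mycl had no count. Per length Mycn was 586 ± 122 times as high as Myc. The libraries fell into pairs for Mycn, with Parental 1 and 2 above Parental 3 and 4, and Tgfb1, Csf2ra and Fth1, picked after their values were seen, showed the same split. Mki67 and Top2a, markers of dividing cells, stood at 857 ± 41.95 and 585 ± 22.6 CPM. Of the D cyclins Ccnd1 led with 325 ± 7.03 TPM against 46.3 ± 1.34 (82.0 over the longest transcript) for Ccnd3 and 4.27 ± 0.219 for Ccnd2. Among the inhibitors of cyclin-dependent kinases Cdkn1a (p21) stood at 257, 272, 262 and 258 CPM, and Cdkn2c and Cdkn1b stood at 34.0 ± 3.54 and 28.6 ± 1.83 CPM. Cdkn2a, which encodes p16 and ARF, its neighbour Cdkn2b, and Cdkn1c had no count, and Cdkn2a lies at chr4:89274471-89294653. Trp53 was used at 266, 258, 253 and 263 CPM, Mdm2 at 81.2 ± 1.98 CPM, and Abl1 and Abl2 at 80.2 ± 3.96 and 141 ± 5.01 CPM.

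Of 19 genes of the BCL2 family 14 were used (73.7%, beside 46.6% of all protein-coding records). Mcl1, which protects from cell death, reached 444 ± 15.3 TPM, and Bax and Bak1, the effectors of mitochondrial pore formation, 369.5 ± 14.1 and 310.0 ± 14.4 TPM. Over the longest transcripts Bax, with 412 TPM, was above Mcl1, with 345 TPM, so the order depends on the length taken. Bcl2l1 stood at 34.1 ± 1.15 TPM and Bcl2 at 5.89 ± 0.371 TPM. The A1 copies Bcl2a1b and Bcl2a1d were counted at 22.9 ± 2.66 and 28.6 ± 1.63 CPM, and since 56.8% and 54.7% of their windows occur in another gene, the split between them is uncertain.

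Of 35 chemokines 11 were used (31.4%) and of 23 chemokine receptors 5 (21.7%), beside 46.6% of all protein-coding records. Ccl9 stood at 241, 247, 254 and 256 CPM, and Ccl3, Ccl4 and Ccl5, which attract monocytes and T cells, at 96.7 ± 5.50, 29.8 ± 1.93 and 11.1 ± 0.817 CPM. Cx3cr1, the fractalkine receptor of monocytes and microglia, stood at 573, 584, 579 and 567 CPM and made up nearly the whole of its list's sum of 582 to 599 CPM. The next receptors, Ccrl2 and Ccr2, stood at 5.38 ± 0.460 and 3.31 ± 0.248 CPM.

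Secreted and effector genes ranged from among the highest to none. Grn, the precursor of granulins, stood at 1202, 1261, 1159 and 1232 CPM, Tnf at 64.6, 59.4, 68.0 and 68.5 CPM and Tgfb1 at 196, 193, 153 and 156 CPM, while Tgfb2 and Tgfb3 were low. Nos2, the inducible nitric oxide synthase, stood at 6.99, 7.04, 7.75 and 7.92 CPM, and Arg1, which uses the same substrate, had 3 counts. Il6, Il1a, Il12a and Il12b had no count and Il10 had 1. Acod1, which makes itaconate, and Il1rn, which blocks the interleukin-1 receptor, stood at 47.9 ± 1.42 and 54.1 ± 1.23 CPM.

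Integrins were dominated by Itga4, with 2751, 2556, 2773 and 2734 CPM, and of 26 listed chains 11 were used (42.3%, beside 46.6% of all protein-coding records). Its partners Itgb1 and Itgb7 stood at 163 ± 4.49 and 6.71 ± 0.303 TPM against 599 ± 28.2 TPM for Itga4. Itgb2, the common chain of leukocyte integrins, stood at 266 ± 13.00 TPM and its partners Itgam and Itgal at 108 ± 7.15 and 9.03 ± 0.608 TPM. For Itgam 64.3% of windows occur in another record, which overlaps it. Of 16 complement genes 6 were used (37.5%), with properdin (Cfp) at 132 ± 5.79 CPM, and the 3 chains of C1q, which tissue macrophages make, had between 6 and 20 counts.

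Iron storage stood high and lipid export was mixed. Ftl1 stood at 4690.2, 4970.2, 4367 and 4320.2 CPM and Fth1 at 3733, 4101, 3405 and 3298 CPM. Ftl1 was 3.28 ± 0.108 times as high as Fth1 over joined exons and 2.69 times over the longest transcripts, although 34.4% of Ftl1 windows occur elsewhere. Slc40a1, the iron exporter ferroportin, stood at 6.43 ± 0.510 CPM. Of the cholesterol exporters Abcg1 stood at 171 ± 6.07 and Abca1 at 25.1 ± 0.686 CPM, and Apoe, a major secreted product of many macrophages, at 2.17, 2.17, 2.01 and 1.99 CPM. Lgals3 and Anxa5, a galectin and a phosphatidylserine-binding annexin, stood at 1495 ± 44.3 and 977 ± 6.73 TPM.

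**Figure D3:**
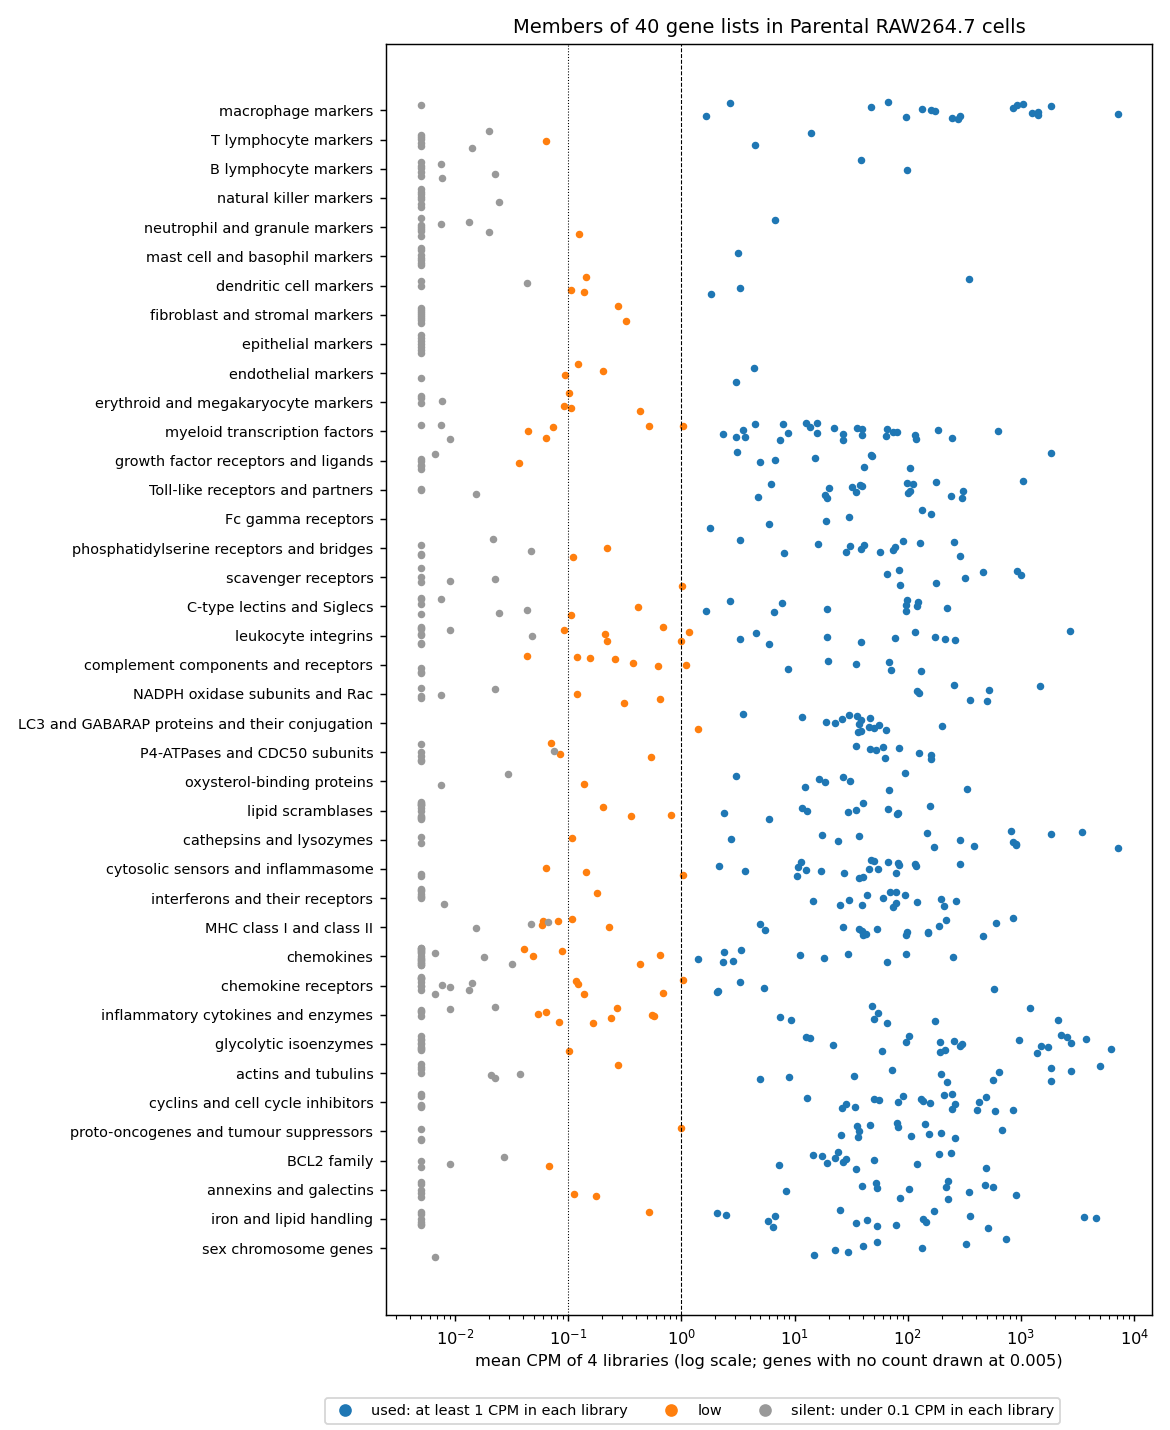
Mean CPM over the 4 libraries (log scale, with genes without a count drawn at 0.005) of every member of 40 gene lists, 1 row a list, coloured by whether the member was used, low or silent. The rows of epithelial, natural killer, fibroblast and erythroid markers hold no used gene, and the macrophage row holds 19 of 20.

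Of the 678 listed genes, 387 were used (57.1%, against 46.6% of all protein-coding records), 77 were low and 214 were silent, of which 167 had no count. The lists were chosen for this cell type, so that share describes the choice as much as the cells.

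The 4 libraries lay close together. Pearson correlations of log2 CPM across genes, which are not independent replicates, ran from 0.9969 to 0.9977 over the 6 pairs of libraries. Among used records the median coefficient of variation between libraries was 4.99%, from 3.22% at the lower to 8.01% at the upper quartile, and 310 of 11147 (2.78%) exceeded 20%. The median fell from 11.2% for records of 1 to 10 CPM, where counting error alone gives 8.50%, to 4.796% at 10 to 100 CPM and 3.19% at 100 to 1000 CPM. At 1000 CPM and more it was 3.35%, where counting alone gives 0.436%. A chi-square test of the 4 counts against the library totals, with Benjamini-Hochberg adjustment over 12560 records, called 5248 of them (41.8%) as more variable than counting error. The share called rose with level, from 21.8% of used records under 10 CPM to 97.9% of those over 1000 CPM. More counts let the test call smaller differences, and the median coefficient of variation itself was lower at high level. Of the listed genes 217 of 413 tested were called (52.5%, beside 41.8% of all records), with a median coefficient of variation of 4.39% among those used. Listed genes and all records were not matched for level. The common biological coefficient of variation from edgeR was 5.20%.

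Parental 2 stood farthest from the others by the share of records that differed beyond counting in a test of each pair. That share was 19.3% between Parental 2 and 1, 23.3% between 2 and 3, and 23.5% between 2 and 4. It was 17.8% between Parental 1 and 3, 16.5% between 1 and 4, and 12% between 3 and 4. By correlation of log2 CPM, Parental 1 lay slightly nearer to Parental 2 (0.9975) than to Parental 3 (0.9973) or 4 (0.9974). Without Parental 2 the number of records called fell to 3339, and the median coefficient of variation was 4.44%. Parental 2 also held the most counts, 37353063, and more counts let such a test call smaller differences. How far this raised the numbers of records called was not tested. Ribosomal protein genes took 4.54% of the counts of Parental 2 and between 4.08% and 4.33% of those of the others, and Rplp1, a ribosomal protein of the stalk, stood at 531, 711, 613 and 525 CPM. Whether these differences share a source was not tested.

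**Figure D4:**
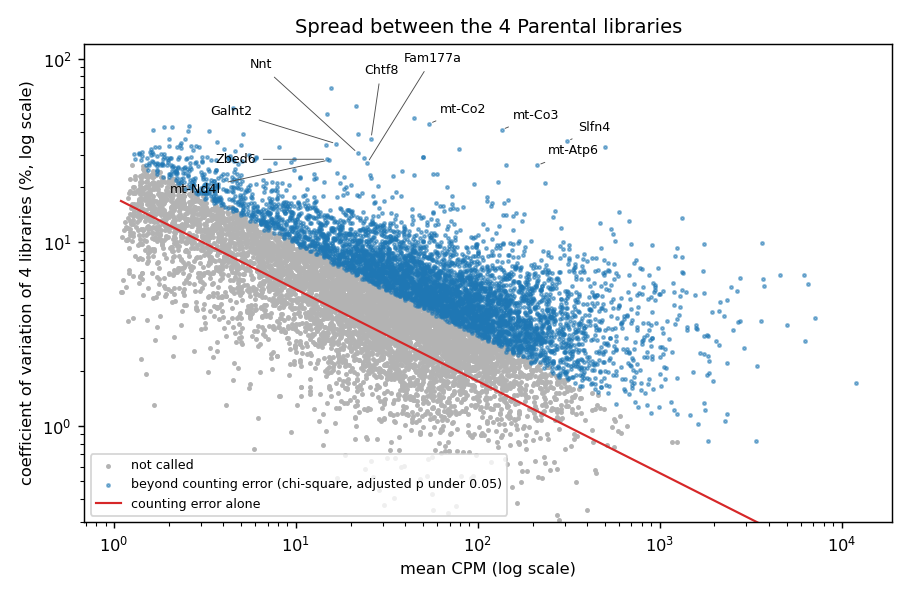
Coefficient of variation between the 4 libraries in percent (log scale) against mean CPM (log scale) for each used record, with counting error alone as a line and records called beyond it in blue. The 10 named genes with the largest spread beyond counting stand well above the cloud, 4 of which are mitochondrial.

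The 10 named genes with the largest spread beyond counting, among those of at least 10 CPM, were Slfn4, 5 other nuclear genes and 4 mitochondrial genes. Slfn4, a Schlafen gene of myeloid cells that interferon induces, stood at 273, 172, 408 and 391 CPM, a coefficient of variation of 35.4%. Parental 2 was lowest and Parental 3 highest for Slfn4, while Irf7, another gene that interferon induces, was nearly even at 628, 633, 603 and 641 CPM. All 10 carried fractional counts in at least 1 library, which RSEM gives where it divides reads between records. Chtf8 and Nnt each have 2 records under 1 symbol, and Galnt2 (24.2, 18.0, 12.9 and 11.6 CPM), Zbed6 (15.6, 9.48, 19.7 and 14.8 CPM) and Fam177a (29.6, 27.8, 26.6 and 14.9 CPM) have 1.

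The remaining 4 were mitochondrial genes with near-identical copies in the nuclear genome. mt-Co3 stood at 61.9, 190, 127 and 164 CPM, a coefficient of variation of 41.0%, and its copy Gm28437 at 2671 CPM. The copy alone varied by 5.40% and the sum of both by 4.37%, a value that the copy, with most of the counts, sets. mt-Co2 stood at 46.5, 32.9, 48.6 and 88.4 CPM and varied by 44.2%, with 1749 CPM in its copies. mt-Atp6 varied by 26.3% with 1332 CPM in its copy, and mt-Nd4l by 28.0% with 71.8 CPM in its copy. Between 97.6% and 99.9% of the windows of mt-Co2, mt-Co3, mt-Atp6, mt-Nd3 and mt-Nd4l occur in a nuclear copy, and none of those of mt-Nd1, mt-Cytb, mt-Nd5, mt-Atp8 and mt-Nd6. A copy did not always go with a wide spread: mt-Nd3, with 5.63 CPM against 244 CPM in its copy, varied by 7.88%, while mt-Nd6 and mt-Atp8, with no copy, varied by 29.9% and 20.8%. The copies that took these counts lie in a row on chromosome 1, from Gm10222 at chr1:24612407-24612700 to Gm28661 at chr1:24614885-24615565. With 10 nuclear copies added, the mitochondrial share of counts was 1.79% ± 0.122 in place of 1.19% ± 0.0744. The levels of mt-Co2, mt-Co3, mt-Atp6, mt-Nd3 and mt-Nd4l are therefore uncertain in these counts, while the copies of mt-Co1, mt-Nd2 and mt-Nd4 took between 0 and 1.71 CPM.

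**Figure D5:**
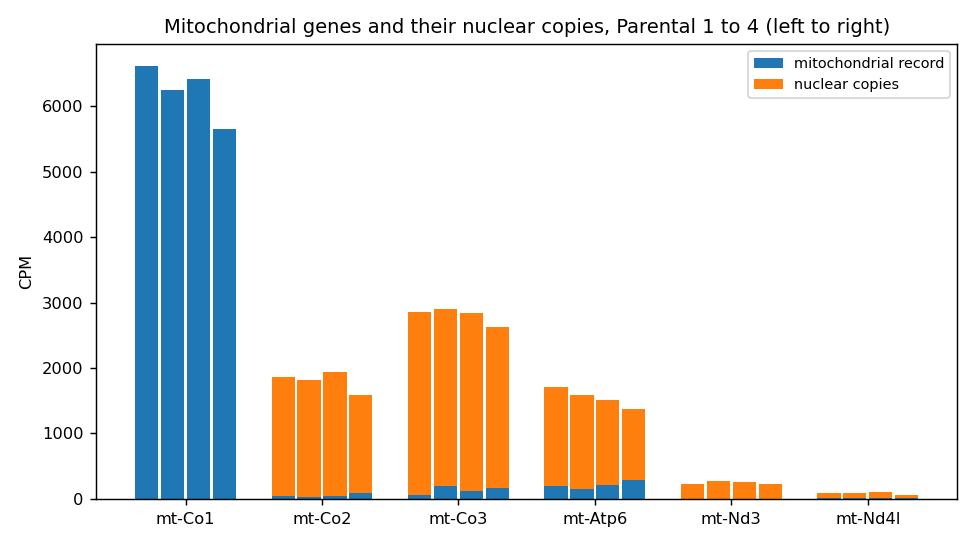
CPM of 6 mitochondrial genes (blue) with their nuclear copies stacked on top (orange), 4 bars a gene for Parental 1 to 4. For mt-Co2, mt-Co3, mt-Atp6, mt-Nd3 and mt-Nd4l most counts sit in the copies, whereas mt-Co1 holds nearly all of its own counts.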

How the data were processed

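RNA from the 4 Parental libraries was analysed. Per the submitters' processing notes, the authors trimmed reads with Trim Galore 0.5.0, aligned them with STAR 2.7.5a to mm10 and used Picard and RSEM. The deposited unit is RSEM expected counts per gene, of which 4.59% carry decimals in these libraries, and the annotation release is not given in the sources used here. RSEM divides reads shared between records, which lowers or raises near-identical genes. Of 55665 records, 92 ERCC spike-ins (0 counts) were dropped. CPM used all remaining counts. TPM used joined exons of GENCODE M21, matched for 55480 of 55573 records. Libraries held 27885958 to 37353063 counts, so 1 CPM is 27.9 to 37.4 counts.

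The members, lists and rules were chosen with earlier results of these data known. Genes are named if they are list members, among the 20 highest protein-coding genes per length, or among the 10 with the largest spread beyond counting at 10 CPM or more; records with clone names were passed over. Spread was tested by chi-square (3 degrees of freedom) on rounded counts of records with a mean count of at least 10, adjusted p under 0.05, and tested on simulated data first. edgeR 4.0.16 (R 4.3.3) gave the biological coefficient of variation of rounded counts over 12083 records. Alternatives were TMM and DESeq2 1.42.0 scaling, other thresholds, the longest transcript, and each library left out. Promoters came from RefSeq on GRCm38.p6. A few genes are not reported here.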

Additional observations from a re-analysis of the deposited data

Results flagged for a closer look

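In each of 387 used listed genes the highest and the lowest of the 4 libraries were compared with the rest, and in 16 genes 1 library stood far from the other 3 by Dixon's 95% critical value for 4 values. Chance gives about 1 gene in 20, so a number of this size is no sign of a pattern, and none was weighed. Parental 2 stood apart in Atp8b4 at 157 CPM (others 159.7 to 160.3), Gsdme at 2.33 CPM (2.07 to 2.12), Havcr2 at 27.9 CPM (31.2 to 31.9), Jmjd6 at 71.0 CPM (74.64 to 75.02), Kdm6a at 27.9 CPM (30.2 to 30.6) and Tapbp at 490.3 CPM (453 to 459). Parental 1 stood apart in Bmf at 6.25 CPM (7.64 to 7.79), Ccl5 at 9.88 CPM (11.4 to 11.6), Gabarapl2 at 45.6 CPM (51.5 to 52.3), Stat5a at 26.9 CPM (24.5 to 24.7) and Tfe3 at 122 CPM (115.7 to 116.2). Parental 4 stood apart in Ctsc at 142 CPM (149.8 to 151.1), Cxcl10 at 16.2 CPM (18.8 to 19.1), Osbpl2 at 32.1 CPM (30.0 to 30.3) and Spp1 at 2249.6 CPM (2063 to 2083). Parental 3 stood apart in Bcl2l1 at 48.2 CPM (51.0 to 51.5).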

How the results depend on the processing

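The number of used records was 11147 and lay between 10569 (2 CPM) and 11702 (0.5 CPM) over all alternatives, and that of silent records was 40556 and lay between 37022 (no count) and 41858 (0.2 CPM). The 100 highest records took 20.4% of counts, 20.04% among nuclear genes only, and 20.3% to 20.5% with each library left out. The median coefficient of variation was 4.99%, rose to 9.80% with no filter on low counts, and was 4.44% to 4.84% with each library left out. Records with spread beyond counting numbered 5248, 4998 with TMM and 4972 with DESeq2 scaling, and 3339 (without Parental 2) to 4241 with each library left out, where fewer libraries are tested. The biological coefficient of variation of 5.20% was 4.71% (without Parental 2) to 5.42% with each library left out and 5.44% with no filter on low counts. Of 320 list counts under alternatives, 319 were within 1.5 times, and used chemokine receptors fell from 5 to 3 at 2 CPM. Over the longest transcript 19 of 20 named levels per length moved by more than their SD, of which Pkm moved by over 1.5 times, and with a library left out 0 of 80 did. Part of these moves is a shift of the TPM scale that all genes share. Lyz2, B2m, Ifitm3, Rplp1, Rps3a1, mt-Co1, mt-Nd1 and mt-Cytb each stood at 0.779 of their level over joined exons. The 19 therefore do not measure how far each gene depends on the length taken. Sums of mitochondrial genes with nuclear copies were added after seeing the data. No paired analysis was possible because all values come from 1 group and no groups were compared. Depth limits statements on genes without a count to levels over 0.0229 CPM.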

Other observations

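The genes beside 2 silent loci were looked up after the values had been seen. Around Cdkn2a on chromosome 4, Mtap stood at 119, 113, 114 and 111 CPM, while the next genes on the other side (Cdkn2b, Dmrta1, Zfp352, Elavl2 and Izumo3) and the interferon genes beyond Mtap (Ifne, Ifna1, Ifna4 and Ifna5) had no count. Around Pycard on chromosome 7, Itgam stood at 170.0, 165, 179 and 188 CPM, while Trim72, between Pycard and Itgam, had 1 count. Silent genes thus had used neighbours at both loci.

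Among records that are not protein-coding, AC158975.2, annotated as a long non-coding RNA, with 10745.8 ± 707 TPM, and the mitochondrial copy Gm28437, with 10557.7 ± 541 TPM, stood highest and differed by less than their SD. They were followed by Gm28661, another mitochondrial copy, with 7947 ± 748 TPM and by processed pseudogenes such as Gm13394 with 7283 ± 380.4 TPM and Rps2-ps10 with 4155 ± 172 TPM. Whether these counts belong to the parent genes was not tested.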
